A study of Mus musculus with 34 samples.

Results

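The MYC, MAX and MXD network was followed through its 10 genes Myc, Mycn, Max, Mxd1, Mxd3, Mxd4, Mxi1, Mnt, Mlx and Mga, which were found by gene symbol among the 23812 rows of an RNA table of mouse splenic B cells. The series holds 34 samples. Its RNA-seq part compares 2 samples of activated B cells, grown for 3 days with 10 µg per ml of LPS (1 label field writes the dose per µl), the endotoxin of Gram-negative bacteria that drives B cells to divide, with 2 samples of resting B cells. Both groups came from the spleen and from the fraction that did not bind CD43 magnetic labels, which mark activated B cells and most other leukocytes; no strain, age or genetic change is given for either. Lists of open chromatin (FAIRE-seq), of enhancer activity in a reporter plasmid (STARR-seq), of histone marks (ChIP-seq) and of chromatin contacts (Hi-C) were used from activated cells. The resting samples carry the same LPS culture in their protocol labels and were taken as resting from their titles, source names and the series design. Whether replicates are separate animals or cultures is not stated, so the p-values reflect sample-to-sample spread that may be technical.

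MYC and its relative N-MYC are transcription factors that bind DNA only as a pair with MAX, at a short site called the E-box, and raise the transcription of genes for growth, ribosome production and metabolism. The MXD proteins (Mxd1, Mxd3, Mxd4 and Mxi1) and MNT pair with the same MAX protein and bind the same sites, where they recruit the SIN3 and histone deacetylase corepressor. MLX is a second partner that pairs with the glucose-sensing Mondo proteins and with some of the repressors, and MGA is a large MAX partner that belongs to a Polycomb-type repressor complex. In B cells, transcription of Myc is known to rise soon after stimulation, and the gene is the common partner in translocations of B cell lymphomas.

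Because the network's proteins bind CACGTG, the member promoters were searched for it, and the stretches that hold it are shown, with the motif in capitals. The motif reads the same on both strands. Promoter windows run from 250 bases before to 50 after a RefSeq start on GRCm38.p6, a different build from that of the peak lists. By symbol 9 members, all but Myc, were matched to 11 windows, and Max, Mxd4, Mnt and Mlx held 1 match each.
Max: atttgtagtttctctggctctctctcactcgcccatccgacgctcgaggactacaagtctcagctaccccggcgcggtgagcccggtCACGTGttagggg
Mxd4: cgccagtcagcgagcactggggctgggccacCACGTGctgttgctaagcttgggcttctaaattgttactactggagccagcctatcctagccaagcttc
Mnt: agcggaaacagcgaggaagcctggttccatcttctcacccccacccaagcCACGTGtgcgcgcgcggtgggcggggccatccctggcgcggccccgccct
Mlx: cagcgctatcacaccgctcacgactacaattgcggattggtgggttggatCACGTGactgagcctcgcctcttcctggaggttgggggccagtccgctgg
The stretch of Max lies at chr12:76962239-76962338 on the minus strand, and its match begins 3 bases before the start. That of Mxd4 lies at chr5:34187861-34187960 on the minus strand, 219 bases before. The stretches of Mnt, at chr11:74830751-74830850, and of Mlx, at chr11:101087200-101087299, are on the plus strand, with the match 123 and 40 bases before the start. Across the genome 7.15% of 32851 windows held the motif, and 11.3% of the 11920 windows with at least 14 CpG, the lowest number in a member window. Member windows held 14 to 49 CpG, against a median of 7 over all windows. A match is a string of letters in a window and was not tested as a binding site. Of the 4 genes, Mnt fell in activated cells, and Max, Mxd4 and Mlx did not pass the test, as described next.

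Values are FPKM (fragments scaled to transcript length and to library size, a unit inferred from the table), tested with limma on log2(FPKM + 1) over all 10863 genes with at least 1 FPKM in at least 2 samples, and called at a Benjamini-Hochberg adjusted p under 0.05. Of the 10 members, 9 entered the test. Higher levels in activated cells were called for Myc and Mxd3, against 28.2% of all tested genes called higher, and lower levels for Mxd1, Mnt and Mga, against 26.2% called lower. With shares this large, 5 called among 9 is near the background. The median log2 difference, activated minus resting, was -0.30 over the tested members and 0.03 over all tested genes. The groups did not overlap in 7 members, 2 higher and 5 lower, and in 80.6% of all tested genes. With 2 samples against 2, an exact permutation test of a single gene cannot go below p = 0.333, so the calls rest on the spread shared across genes.

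Myc, at chr15:61816896-61821916 (mm9), rose in activated cells. Its level was 55.3 and 59.4 FPKM in activated samples, against 32.7 and 26.2 FPKM in resting samples. Both activated samples stood above both resting ones. The means were 57.3 ± 2.88 FPKM in activated and 29.5 ± 4.59 FPKM in resting cells (SD, n = 2 each), a log2 difference of 0.94 (SE 0.18, limma adjusted p = 0.00560) or 1.92-fold on the FPKM + 1 scale. In activated cells its mean exceeded that of 91.1% of tested genes, and in resting cells that of 83.1%. Without resting replicate 2 the difference was 0.79 and the call was lost (adjusted p = 0.0624). Mycn, which encodes the relative that serves in embryonic tissues and is amplified in neuroblastoma, was listed at 0.0325 and 0 FPKM in activated samples and at 0 in both resting samples, and was not tested.

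Max, at chr12:78038256-78063235, encodes the partner shared by the MYC, MXD and MNT proteins. Its level was 39.4 and 40.5 FPKM in activated samples, against 47.5 and 51.5 FPKM in resting samples. Both activated samples lay below both resting ones, but the difference did not pass the test (log2 difference -0.30, SE 0.17, adjusted p = 0.167); after quantile normalization it was called lower (-0.53, adjusted p = 0.0214). The ratio of Myc to Max was 1.40 and 1.47 in activated samples, against 0.689 and 0.510 in resting samples. Myc RNA therefore stood above Max RNA in both activated samples and below it in both resting ones; RNA levels say nothing of the protein.

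**Figure D1:**
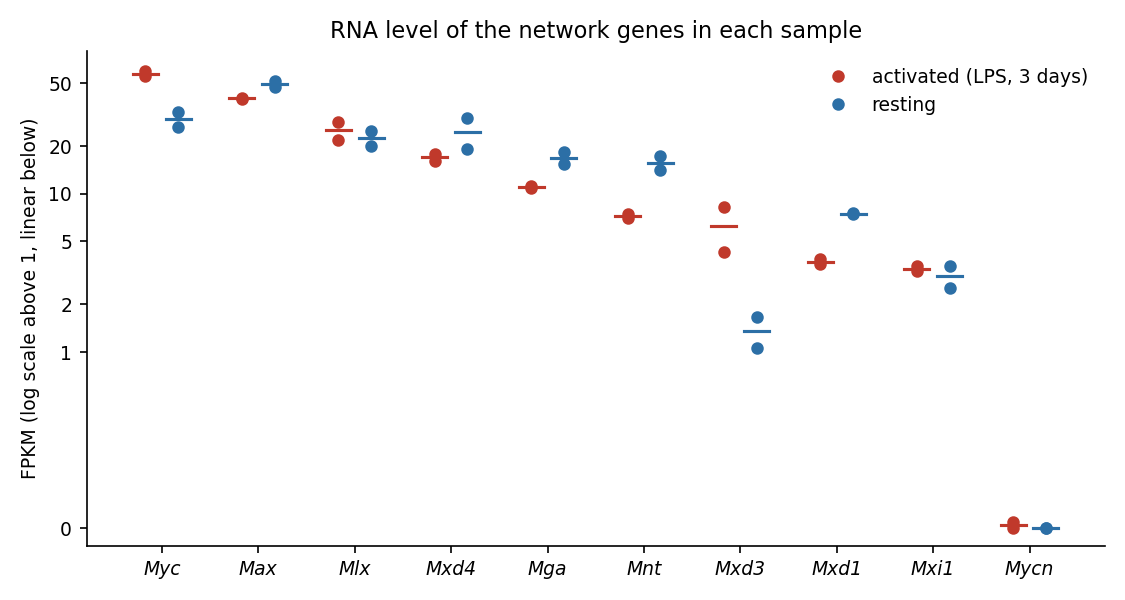
RNA level (FPKM, log scale above 1 and linear below) of each network gene in the 2 activated samples (red, left) and the 2 resting samples (blue, right); points are samples and bars are means. Myc and Mxd3 lie higher in activated cells, Mnt, Mga and Mxd1 lower, Mlx and Mxi1 overlap between the groups, and Mycn is at or near 0 in every sample.

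The repressor arm changed in both directions. Mnt, at chr11:74644426-74659227, encodes the widely expressed antagonist of MYC. It measured 7.502 and 7.034 FPKM in activated samples, against 17.2 and 14.1 FPKM in resting samples. With no overlap, the mean fell to 7.27 ± 0.331 FPKM in activated cells, against 15.6 ± 2.22 FPKM in resting cells (SD, n = 2 each; log2 difference -1.003, SE 0.16, adjusted p = 0.00245), 0.499-fold. Mxd1, at chr6:86597039-86619153 and known for its induction as cells stop dividing and differentiate, measured 3.86 and 3.60 FPKM in activated samples, against 7.40 and 7.52 FPKM in resting samples. The replicates were close and the groups far apart, and Mxd1 fell (log2 difference -0.84, SE 0.15, adjusted p = 0.00395), 0.559-fold.

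Mxd3, at chr13:55426529-55431091, moved the other way. This member is known, unlike its relatives, for expression in proliferating cells in S phase. It measured 4.28 and 8.24 FPKM in activated samples, against 1.06 and 1.66 FPKM in resting samples. The activated samples differed from each other more than the resting ones did, yet both lay above them. The mean was 6.26 ± 2.80 FPKM in activated and 1.36 ± 0.418 FPKM in resting cells (SD, n = 2 each). The log2 difference was 1.58 (SE 0.29, adjusted p = 0.00420), 2.98-fold on the FPKM + 1 scale, against a ratio of mean FPKM of 4.60. All fold values given here are on the FPKM + 1 scale, which understates changes of low genes. The locus of Prelid1, which also rose, overlaps that of Mxd3 by 105 bases and averaged 121.5 FPKM in activated and 51.0 FPKM in resting cells; no strand is given, so reads in the shared bases cannot be told apart. Mxd3 was the only one of the 5 MXD and MNT genes that was called higher.

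Mxd4, at chr5:34519229-34530359, was the most abundant repressor RNA in both groups. It measured 17.8 and 16.2 FPKM in activated samples, against 19.1 and 30.01 FPKM in resting samples. The groups did not overlap, but the resting samples lay far apart and the test was not passed (log2 difference -0.48, SE 0.23, adjusted p = 0.115). It was called lower without resting replicate 1 (-0.79, adjusted p = 0.0431) and under some scalings. Mxi1, at chr19:53384996-53450300, measured 3.24 and 3.50 FPKM in activated samples, against 2.54 and 3.48 FPKM in resting samples. Its groups overlapped (log2 difference 0.13, SE 0.18, adjusted p = 0.557).

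Summed, the 4 MXD genes and Mnt gave 36.7 and 38.6 FPKM in activated samples, against 47.4 and 56.7 FPKM in resting samples. Mxd4 made up 48.5% and 42.0% of this sum in activated samples, against 40.4% and 52.9% in resting samples, so its share overlapped. Mnt made up 20.4% and 18.2% in activated samples, against 36.3% and 24.8% in resting samples, and its share did not overlap. Myc over the summed repressors was 1.51 and 1.54 in activated samples, against 0.691 and 0.463 in resting samples. Myc over Mnt was 7.37 and 8.44 in activated samples, against 1.90 and 1.87 in resting samples. Both ratios separated the groups, as did Mxd3 over Mxd1, which was 1.11 and 2.29 in activated samples and 0.144 and 0.220 in resting samples. All 10 members together gave 164.6 and 177.6 FPKM in activated samples, against 165.8 and 174.8 FPKM in resting samples. The sum thus overlapped between the groups while its makeup differed; these ratios are descriptions with no test.

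Mlx, at chr11:100948604-100953521, measured 21.9 and 28.4 FPKM in activated samples, against 19.9 and 24.8 FPKM in resting samples. The groups overlapped (log2 difference 0.16, SE 0.20, adjusted p = 0.515). Psmc3ip shares 67 bases with the locus of Mlx and rose, to 8.45 FPKM in activated cells, against 1.68 FPKM in resting cells. Mga, at chr2:119722964-119795317, measured 11.2 and 10.9 FPKM in activated samples, against 18.2 and 15.5 FPKM in resting samples. Both activated samples were lower, and Mga fell (log2 difference -0.57, SE 0.15, adjusted p = 0.0195), 0.675-fold. The call was lost without resting replicate 1 (-0.46, adjusted p = 0.170) and without resting replicate 2 (-0.68, adjusted p = 0.0558).

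**Figure D2:**
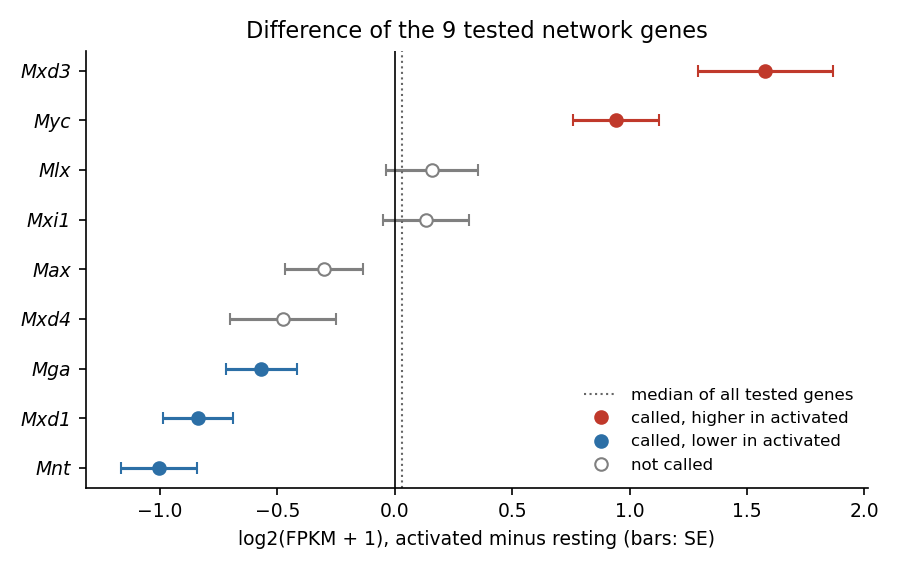
Log2 difference, activated minus resting, of the 9 tested network genes with its standard error; filled points passed the test and open points did not, and the dotted line is the median of all tested genes (0.03). Mxd3 (1.58) and Myc (0.94) lie to the right, and Mga (-0.57), Mxd1 (-0.84) and Mnt (-1.003) to the left.

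In activated cells the levels ran Myc, Max, Mlx, Mxd4, Mga, Mnt, Mxd3, Mxd1, Mxi1 and Mycn, from high to low. Among neighbours in that order only Mnt and Mxd3 had overlapping samples. In resting cells the order was Max, Myc, Mxd4, Mlx, Mga, Mnt, Mxd1, Mxi1, Mxd3 and Mycn, with overlap between Myc and Mxd4, between Mxd4 and Mlx, and between Mga and Mnt. Mxd3 therefore stood last of the tested members in resting cells and above Mxd1 and Mxi1 in activated cells. By the distance between centred log2 values over the 4 samples, the tested genes most like Myc were Atp6v0a1 at 0.0619, Bhlhb9 at 0.0851, Fam98b at 0.0914, Hnrnpul1 at 0.0999 and Eif5b at 0.101. Eif5b, a translation initiation factor, measured 26.2 and 27.2 FPKM in activated samples, against 15.2 and 13.01 FPKM in resting samples.

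The resting samples also held more RNA of other blood cells. Summed red pulp macrophage and monocyte markers gave 0.844 and 7.68 FPKM in activated samples, against 530.9 and 877.6 FPKM in resting samples; 9 of the 10 were called lower, and C1qa and C1qb were at 0 in both activated samples. Erythroid markers gave 14.6 and 5.35 FPKM in activated samples, against 1395 and 9490 FPKM in resting samples, with 5 of 6 tested called lower. T cell markers gave 2.56 and 1.61 FPKM in activated samples, against 22.1 and 30.1 FPKM in resting samples. Of these, 3 of 3 tested, Cd4, Cd8a and Lck, were called lower. Cd3d, Cd3e and Cd3g were not tested and were at 0 in activated cells. In resting cells they were low too, at 0.0491, 0.135 and 0.0668 FPKM in replicate 1. In resting replicate 2 they measured 1.05, 1.29 and 1.495 FPKM. The resting sums thus came mostly from the tested genes. Neutrophil markers, none of them tested, gave 0.0307 and 0.261 FPKM in activated samples, against 1.40 and 26.3 FPKM in resting samples. B cell markers were present throughout: Cd79a, a chain of the B cell receptor, measured 530.1 and 417.0 FPKM in activated samples and 766.1 and 706.5 FPKM in resting samples and was not called (adjusted p = 0.0679). Cd79b, Ms4a1 and Cd22 were called lower, with Ms4a1 at 467.2 and 323.4 FPKM in activated samples, against 681.9 and 854.6 FPKM in resting samples (adjusted p = 0.0266). These markers moved with the falls of Mnt, Mxd1 and Mga and with the rises of Myc and Mxd3, and their part in them was not tested. In bulk RNA, fewer cells of a type and less RNA per cell cannot be told apart.

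Genes that act with the network or downstream of it were counted in 8 lists from general knowledge. The lists were chosen with earlier results of these data known, so their counts are descriptions and not independent of the data. The background for the counts over all 4 samples is again the 28.2% called higher and 26.2% called lower. With a resting sample left out fewer of all genes were called, 1229 lower without resting replicate 1 and 1191 without resting replicate 2. Of 20 MYC-induced targets, 19 were called higher and none lower, with a median log2 difference of 1.59, against 0.03 over all tested genes. Ccnd2, a D-type cyclin that drives entry into the cell cycle, measured 101.8 and 180.7 FPKM in activated samples, against 17.8 and 16.5 FPKM in resting samples, a 7.53-fold rise (adjusted p = 0.000345). Shmt2, a mitochondrial enzyme of serine and one-carbon metabolism, rose 6.92-fold (adjusted p = 0.000109), and Srm, the spermidine synthase, 5.89-fold (adjusted p = 0.000843). The one gene not called was Tfrc, the transferrin receptor, at 29.5 and 62.0 FPKM in activated samples and 22.0 and 34.4 FPKM in resting samples. With either resting sample left out, 16 of the 20 were called higher, in fits that called 1735 of 10240 genes higher without resting replicate 1 and 2133 of 10236 without resting replicate 2.

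MYC-repressed targets did not move as one. Of 5 tested genes 2 were called higher and 2 lower, with a median of 0.19. The cell cycle inhibitor Cdkn1a, which MYC is known to repress, measured 33.2 and 18.1 FPKM in activated samples, against 1.90 and 1.48 FPKM in resting samples, a 9.52-fold rise (adjusted p = 0.000225). Its relative Cdkn2b rose 5.41-fold (adjusted p = 0.000102). The stress gene Ndrg1 fell, to 0.396-fold (adjusted p = 0.00115), as did the inhibitor Cdkn1b, to 0.685-fold (adjusted p = 0.0449). Cdkn2b reached 1 FPKM only in activated samples and Ndrg1 only in resting samples, so each entered the test through the group where it was high. With 1 activated sample left out, either of them, 4 genes were tested, without Cdkn2b, and 1 was called in each direction. With 1 resting sample left out, 4 were tested, without Ndrg1, and none was called lower.

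**Figure D3:**
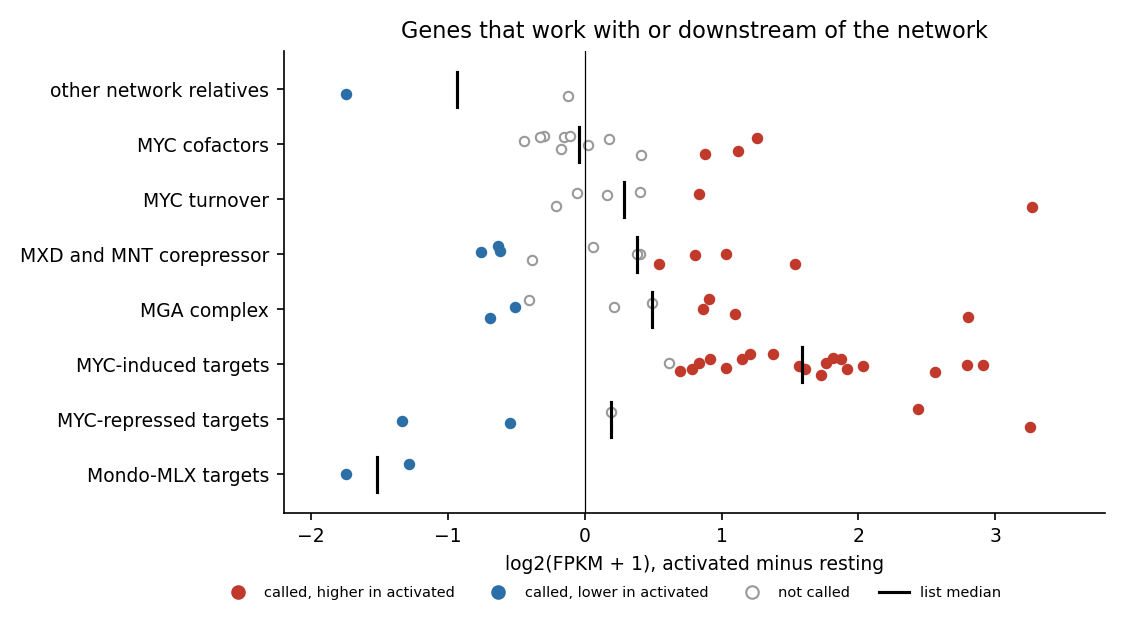
Log2 difference, activated minus resting, of each tested gene in 8 lists of network relatives, partners and targets; red points were called higher, blue points lower and open points were not called, and black bars are list medians. MYC-induced targets all lie right of 0, MYC-repressed targets on both sides, and both Mondo-MLX targets to the left.

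In the SIN3 and histone deacetylase corepressor list, 4 of 11 genes were called higher and 3 lower, shares near the background. Rbbp7, a histone-binding subunit, measured 71.9 and 90.5 FPKM in activated samples, against 26.9 and 27.5 FPKM in resting samples, a 2.90-fold rise (adjusted p = 0.000881). Sap30 rose 2.05-fold (adjusted p = 0.00604) and Rbbp4 1.75-fold (adjusted p = 0.0101), while the subunits Arid4b and Arid4a fell to 0.590-fold and 0.644-fold (adjusted p = 0.00560 and 0.0138). Without resting replicate 1 these counts were 2 higher and 0 lower.

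Among partners in the MGA complex, 4 of 9 genes were called higher and 2 lower. Tfdp1, which pairs with E2F factors, measured 41.2 and 49.8 FPKM in activated samples, against 5.74 and 5.57 FPKM in resting samples, a 6.95-fold rise (adjusted p = 6.48e-05). E2f6 rose 2.15-fold (adjusted p = 0.00260) and the chromatin protein Cbx3 1.87-fold (adjusted p = 0.00275). The Polycomb subunits Ring1 and Rybp fell, as Mga did, to 0.619-fold and 0.703-fold (adjusted p = 0.00693 and 0.0371). Leaving out 1 activated sample, either of them, left 1 lower call, and leaving out 1 resting sample, either of them, left none. Tfdp1 and E2f6 are also known from complexes without MGA.

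Of 12 MYC cofactors 3 were called higher and none lower, with a median of -0.04. They included the paired ATPases Ruvbl1 (2.39-fold, adjusted p = 0.00829) and Ruvbl2 (2.17-fold, adjusted p = 0.00548). Centred on sample medians or quantile normalised, 2 cofactors were called lower as well. Among 6 genes of MYC turnover, 2 were called higher. The kinase Aurka, a mitotic kinase that stabilises N-MYC, measured 28.4 and 42.6 FPKM in activated samples, against 2.76 and 2.66 FPKM in resting samples, a 9.64-fold rise (adjusted p = 8.55e-05). Skp2, an F-box protein that ubiquitinates MYC, rose 1.78-fold (adjusted p = 0.0251). With activated replicate 2 or either resting sample left out, 1 turnover gene was called.

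On the MLX side, both targets of the Mondo and MLX pair fell. Txnip, an inhibitor of glucose uptake, measured 89.9 and 61.1 FPKM in activated samples, against 250.6 and 252.0 FPKM in resting samples, a fall to 0.298-fold (adjusted p = 0.00151). Arrdc4, its relative, measured 0.0853 and 0.0528 FPKM in activated samples, against 1.27 and 2.001 FPKM in resting samples (adjusted p = 0.00130); with 1 resting sample left out it no longer reached the level for testing. Mlxip, which encodes a Mondo protein, measured 34.5 and 30.2 FPKM in activated samples and 35.7 and 34.7 FPKM in resting samples and was not called (adjusted p = 0.548). Mlxipl, its glucose-sensing relative, was at most 0.0675 FPKM in any sample. The third MYC family gene, Mycl1, fell to 0.403 and 0.371 FPKM in activated samples, against 2.73 and 4.80 FPKM in resting samples (0.298-fold, adjusted p = 0.00113), and it too dropped out of the test with 1 resting sample left out.

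The chromatin of the member loci was read from the lists of activated cells, with no replicates, as peaks within 5 kb of a locus. A FAIRE peak lay at all 10 members, an H3K4me3 peak (a mark of active or poised promoters) at 9, an H3K27ac peak (a mark of active promoters and enhancers) at 8, and a STARR peak at 7. Among 10242 loci with a mean of at least 1 FPKM in activated cells, 96.5% had FAIRE, 94.3% H3K4me3, 93.6% H3K27ac and 68.8% STARR peaks. None of the 48 super-enhancers (long domains of H3K27ac) lay within 5 kb of a member, as in all but 0.586% of those loci.

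Myc lay under broad marks. Its H3K4me3 peak, chr15:61815255-61821026, spanned 5772 bases and was wider than 99.1% of H3K4me3 peaks, whose median width was 1380 bases. Its H3K27ac peak, chr15:61815501-61819936, spanned 4436 bases, wider than 96.7% of such peaks. The locus had 5 FAIRE peaks and 2 STARR peaks. One STARR peak, chr15:61814883-61815183, lay outside the locus on its low-coordinate side and coincided with a FAIRE peak, and the other, chr15:61821648-61821947, covered the opposite end of the locus and did not. Mnt, which fell, was also broadly marked, with an H3K27ac peak of 5646 bases that was wider than 98.3% of such peaks, an H3K4me3 peak of 4519 bases, 11 FAIRE peaks and 3 STARR peaks. Mxi1, at 3.37 FPKM in activated cells, had an H3K4me3 peak of 4114 bases, wider than 96.8%. The 3 genes with the widest marks thus rose, fell and were not called.

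STARR peaks covered the 5′ end of Max, at chr12:78063225-78063525, and of Mlx, at chr11:100948412-100948712, both overlapping FAIRE peaks. At Mxd1 the STARR peak was centred 340 bases upstream of the 5′ end. The 3 STARR peaks of Mnt were centred 2316 and 542 bases upstream and 7922 bases downstream of the 5′ end. At Mxi1 the STARR peak lay 3796 bases inside the locus, and at Mga it lay beyond the far end of the gene, chr2:119797963-119798263. No STARR peak lay within 5 kb of Mycn, Mxd3 or Mxd4.

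**Figure D4:**
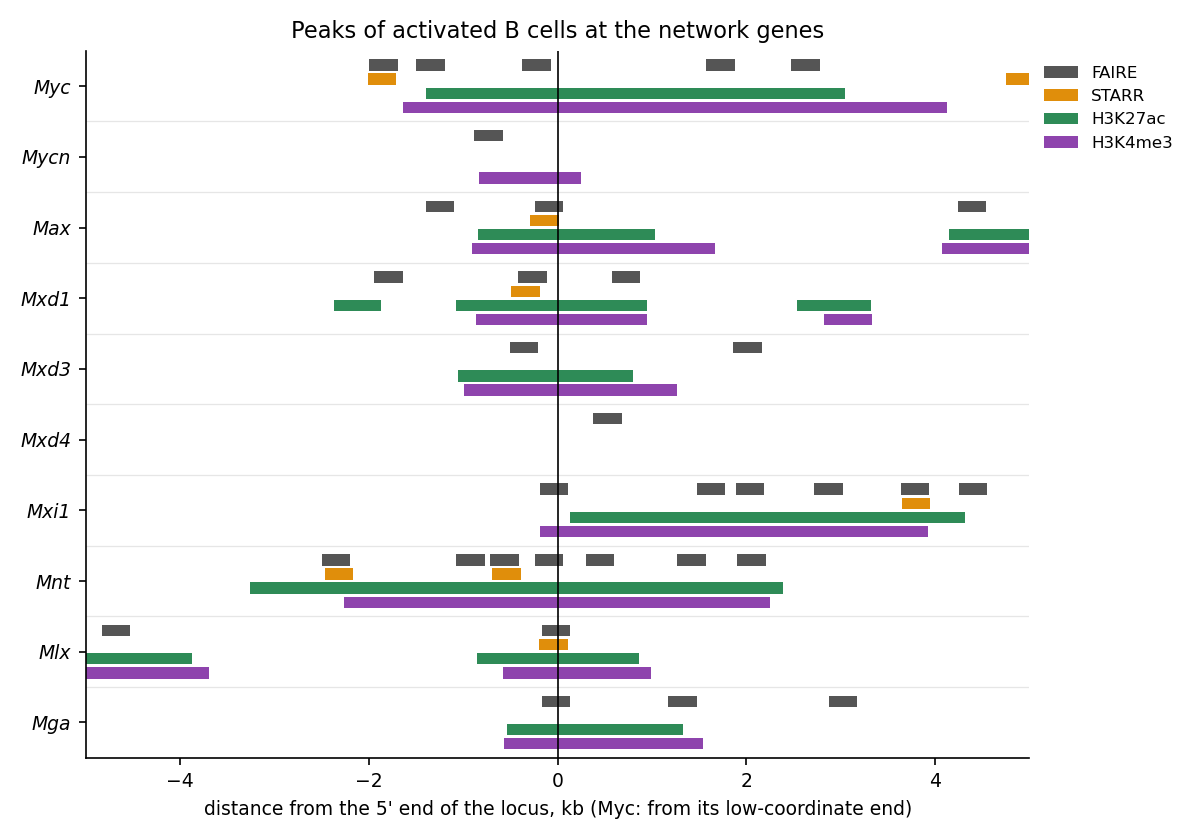
Peaks of activated B cells within 5 kb of the 5′ end of each network gene (Myc: of its low-coordinate end); the x axis is distance in kb and each colour is 1 list. Myc, Mnt and Mxi1 carry the widest H3K4me3 and H3K27ac peaks, Mycn has H3K4me3 without H3K27ac, and Mxd4 has only a FAIRE peak.

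Mycn and Mxd4 were the members without an H3K27ac peak within 5 kb. Mycn, with RNA at or near 0, had an H3K4me3 peak of 1084 bases over its 5′ end and a FAIRE peak, with the nearest H3K27ac peak 307 kb away and the nearest STARR peak 634 kb away. Of 11276 loci with a mean under 0.1 FPKM in activated cells, 20.7% had H3K4me3 and 10.2% had it without H3K27ac. Mxd4, at 17.0 FPKM in activated cells, had a FAIRE peak 528 bases inside its 5′ end and neither mark within 5 kb. Of 5645 loci with a mean of at least 10 FPKM in activated cells, 184 (3.26%) lacked both marks. The marks nearest to Mxd4 lay past that limit beyond its 3′ end, H3K27ac at 6.25 kb and H3K4me3 at 6.4 kb from the locus. The locus spans 11131 bases, so both marks lay further still from the 5′ end.

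Hi-C contacts were counted where 1 anchor lay within 5 kb of a member and the other outside. The list held 27903 distinct contacts with at least 5 reads each, none of them between chromosomes. Members had 81 contacts out, which reached 62 far regions, and all members but Mycn had at least 1. Among loci with a mean of at least 1 FPKM in activated cells, 85.7% had a contact out, with a median of 5. Far regions held H3K27ac peaks in 48 cases, H3K4me3 in 48, FAIRE in 54 and STARR in 46. Among all anchors of 5000 bases in the list, 87.9% held H3K27ac, 83.4% H3K4me3, 94.4% FAIRE and 76.1% STARR peaks. Among anchors of 2000 bases these shares were 82.4%, 77.2%, 88.0% and 71.0%. Such peaks are thus common at anchors in general. The far regions were of mixed width, so neither set of anchors matches them fully. By its name the list was filtered for enhancer-promoter contacts, so peaks at far regions may reflect that selection.

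In this filtered list, where 76.1% of anchors of 5000 bases held a STARR peak, Myc contacted 4 far regions and each held one. The nearest, chr15:61997794-62002793, lay 181 kb to the high-coordinate side with 57 reads, in the locus of Pvt1, the long non-coding RNA gene beside Myc, and also held H3K27ac and H3K4me3 peaks. Pvt1 rose with Myc, at 7.28 and 3.38 FPKM in activated samples, against 1.65 and 2.08 FPKM in resting samples (log2 difference 1.08, SE 0.30, adjusted p = 0.0222). A region 444 kb away on the same side, chr15:62259292-62264291, had 31 reads, and one 839 kb away, chr15:62652105-62657104, had an H3K27ac peak and 2 contacts, with 39 reads at a deposited z-score of 10.9 and, between narrower anchors, 11 reads at a z-score of 17.4, the highest at Myc. On the other side a region 437 kb away, chr15:61375134-61380133, had 14 reads. Only the nearest held H3K4me3. No contact list of resting cells was used, so a difference between the groups was not tested.

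Mnt had 31 contacts to 21 far regions, a number of contacts that 0.557% of expressed loci reached. Its strongest contacts lay 181 kb and 116 kb away, at Cluh (53 reads) and Pafah1b1 (47 reads), while 14 of its regions lay beyond 1 Mb with 5 to 9 reads each. Mlx had 16 contacts to 12 regions, a number that 7.11% reached. Its strongest contacts were 29.3 kb away at Fam134c (76 reads) and 22.0 kb away at Naglu (59 reads). The near anchors of both contacts lay mostly outside the Mlx locus, and that of the Naglu contact reached Fam134c. Coasy lies 670 bases from Mlx and Psmc3ip overlaps it, so neither contact can be assigned to 1 gene. Some other near anchors of Mlx lay wholly outside its locus, in the 5 kb beside it. Mxd3, which had no STARR peak of its own within 5 kb, contacted a region 40.7 kb away at Lman2 with 72 reads that held STARR, FAIRE, H3K27ac and H3K4me3 peaks. The near anchor of this contact only touched the edge of the Mxd3 locus and also covered Prelid1 and part of Rab24, so it cannot be assigned to 1 of these genes.

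Max had 8 contacts to 7 regions, the strongest 276 kb away at Fut8 (29 reads). Mga had 5 contacts, Mxd4 4, Mxd1 3 and Mxi1 2. For several members, Mga and Mxd4 among them, some near anchors lay wholly outside the locus, in the 5 kb beside it. At Mga some of these also covered part of the neighbour Mapkbp1, so they cannot be assigned to 1 gene. With loci not extended, the contacts of all members numbered 63 rather than 81. All 4 regions of Mxd4 lay beyond 1 Mb with 5 reads each, the lowest count in the list. Myc, the most abundant member in activated cells, had 5 contacts, the median of expressed loci, and Mnt, which fell, had the most of the 10 genes.

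**Figure D5:**
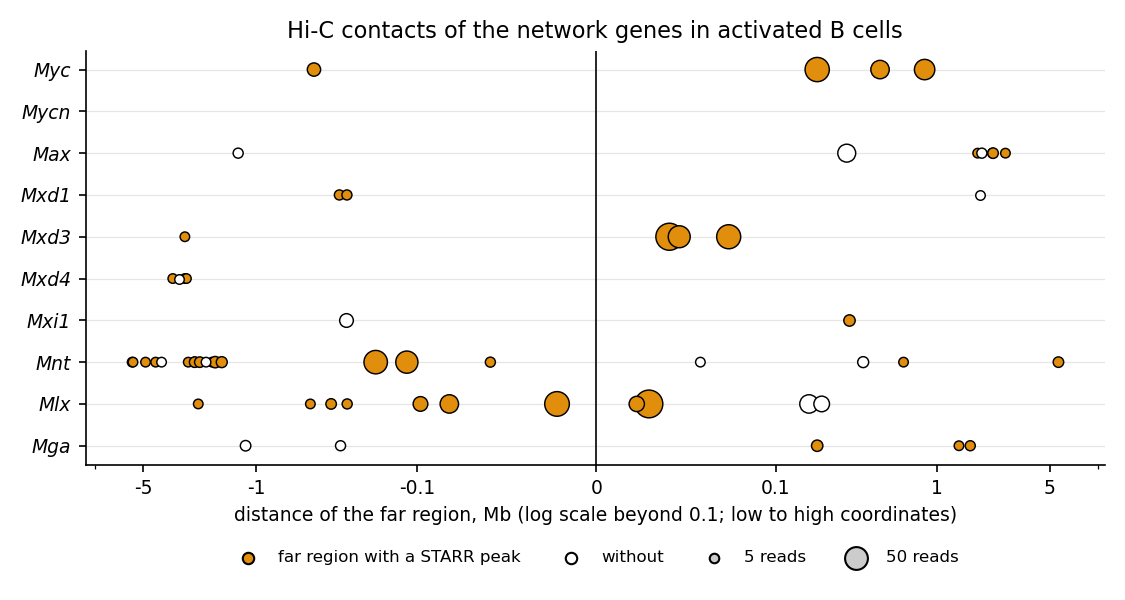
Far regions contacted by each network gene in activated B cells, by distance in Mb from low to high coordinates (log scale beyond 0.1 Mb); point area grows with the highest read count and orange points hold a STARR peak. All 4 regions of Myc hold one, Mnt has 21 regions, and Mycn has none.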

How the data were processed

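The deposited RNA table gives 1 value per gene and sample. Its unit is not named; the authors' values were treated as FPKM because they are not whole and their sums differ (285068 and 285129 in activated, 244602 and 287884 in resting samples). Read totals are not given, so the depth is unknown. Per the submitters' processing notes, build mm9 and the tools STAR, TopHat2, bedtools, HOMER, Bowtie and Bowtie2 were used, in roles and versions not given. The network members and the gene lists were chosen with earlier results of these data known. The test was limma 3.58.1 (R 4.3.3, with trend and robust moderation), for genes that reached 1 FPKM in 2 or more samples, on log2(FPKM + 1), pseudocount 1, which understates changes of low genes, and adjusted by Benjamini-Hochberg over all tested genes; the procedure was tested on simulated data. The members were all named. From each list the rule named up to 3 called genes with the largest rise and up to 2 with the largest fall; Tfrc, Mlxip, Mlxipl, Psmc3ip, Prelid1 and Pvt1 were named after their values were seen. Some genes of the lists are not reported here.

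The deposited peak lists give positions with no score and hold 1 list per assay, so replicates cannot be compared; the labels name the FAIRE and ChIP-seq lists under replicate 1. The deposited Hi-C list gives a read count over pooled replicates and a z-score by the authors for each contact, used as deposited. Peaks overlapping a locus extended by 5 kb by at least 1 base were counted, and far anchors that overlapped were merged. Coordinates are 1-based on mm9, and locus starts were read as counted from 0, because end minus start equalled the RefSeq gene length for 9171 of 21278 symbols, against 557 for the other reading. The 5′ ends use RefSeq strands, and promoter sequences come from RefSeq (GRCm38.p6). Alternatives changed the pseudocount, filter, scaling, moderation, replicate block, samples, windows and contact threshold. Samples of H3K4me1, nascent RNA, the plasmid library and resting ChIP-seq were not analysed here.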

Additional observations from a re-analysis of the deposited data

How the results depend on the processing

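Across 13 alternative fits, the calls of Mxd1, Mxd3 and Mnt held in all, with log2 differences of -0.98 to -0.80, 1.17 to 2.08 and -1.14 to -0.87. Myc ranged over 0.72 to 1.10 and Mga over -0.68 to -0.46, with the losses given above. Under quantile normalization 5 members were called lower, with Max (-0.53, adjusted p = 0.0214) and Mxd4 (-0.60, adjusted p = 0.0386) added. Mxd4 was also called lower after scaling to the same sum (-0.57, adjusted p = 0.0179) and without resting replicate 1 (-0.79, adjusted p = 0.0431). With 1 sample left out, Mlx ranged from -0.0194 (without activated replicate 2) to 0.34 and Mxi1 from -0.0363 (without resting replicate 1) to 0.30, so both changed sign; neither was called in any fit. Likewise, 1735 to 2859 genes were called higher (lowest without resting replicate 1) and 1191 to 2834 lower (1229 without resting replicate 1 and 1191 without resting replicate 2), with 1 to 2 members higher and 2 to 3 lower; Myc dropped out without resting replicate 2. The cause of these moves was not tested. With the replicate block, 3317 genes were called higher and 2964 lower, and the same numbers of members, 2 and 3; replicate differences in both groups correlated at r = 0.124 over tested genes, and 2 pairs do not establish a pairing. For loci not extended, 4 members had a STARR peak in FAIRE, and contacts with at least the median count of 7 reads numbered 45. Depth is unknown for the RNA, and peaks and contacts have no replicates.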
